A study of Mus musculus with 16 samples.

Results

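Anp32a, Anp32b and Anp32e encode the acidic nuclear phosphoproteins, and their RNAs were followed in protrusions and cell bodies of mouse fibroblasts. The 3 RNAs were chosen by gene symbol from the 12900 RNAs of the deposited table, and no other row of the table has a symbol that starts with Anp32. The family was proposed because Anp32b was known from these data to be enriched at protrusions and less so in one of the lines. The protrusion to cell-body ratios of the 3 RNAs and the change of these ratios between the lines are therefore given as descriptions, without p-values. In cell bodies Anp32b was the most abundant of the 3 and Anp32e the least, and the enrichment in protrusions fell in the same order, Anp32b, Anp32a, Anp32e, in both lines. Anp32b and Anp32a were higher in protrusions under each scaling of the libraries that was tried, whereas the small enrichment of Anp32e was at or near 0 when plain totals of reads were used.

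ANP32 proteins share a fold of leucine-rich repeats at their N-terminus and a long acidic tail at their C-terminus, with which they bind histones and other basic proteins. ANP32A is known as an inhibitor of the phosphatase PP2A, together with its partner SET, and as a part of complexes that restrain histone acetylation. ANP32A and ANP32B also bind the RNA-binding protein HuR, ANP32A promotes the activity of the apoptosome, and ANP32E removes the histone variant H2A.Z from chromatin. The proteins are mostly nuclear and shuttle to the cytoplasm. Nothing on the proteins was measured here.

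RNA-Seq was performed on NIH/3T3 cells, a mouse embryonic fibroblast line, that stably carried a doxycycline-inducible human β-globin coding sequence. In HBB cells the sequence was followed by the β-globin 3′UTR, and in Pkp4 cUTR cells by the 3′UTR of mouse Pkp4, an RNA that localizes to protrusions, which was used as a competitor. Both lines were induced with 1 μg/ml doxycycline for 3 days, serum-starved, plated for 2 h on filters with 3.0 μm pores and exposed to LPA, a lipid that triggers protrusions, for 1 h. Protrusions (Ps) below the filter and cell bodies (CB) above it were collected after fixation, which gave 4 groups of 4 samples, HBB Ps, HBB CB, Pkp4 cUTR Ps and Pkp4 cUTR CB. Each construct was carried by a single transduced line, so the line and the construct cannot be told apart.

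The samples held 18660287 to 31260831 reads over the table, and 1 read was therefore a small step beside any value given below, as 3 reads amounted to at most 0.176 counts per 1000000 reads (CPM). Fibroblast markers were high (6 of 7 in the table, with a summed level of 18978 to 30519 CPM), whereas 2 of 4 epithelial markers summed to 10.6 to 20.3 CPM, 2 endothelial markers to 0.454 to 1.87 CPM, 1 of 2 leukocyte markers lay between 2.83 and 6.67 CPM and no muscle marker was in the table. The nuclear RNAs Malat1 and Neat1 were lower in Ps of HBB cells by log2 values of -1.85 and -1.48, and Rab13, a known Ps RNA, was higher by 2.36. Pkp4, whose 3′UTR the construct carries, was higher in Pkp4 cUTR than in HBB cell bodies by 4.44 on the log2 scale. On the first principal component, which held 48.6% of the variance, Ps samples lay between -50.0 and -21.3 and cell bodies between 23.4 and 47.5, except that Pkp4 cUTR CB replicate 4 lay at 0.972. Values without both replicate 4 cell bodies are given beside the results that they moved most.

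The 3 genes lie on different chromosomes in mm10, according to the GENCODE vM21 annotation. Anp32a occupies bases 62341293 to 62378812 of chromosome 9, Anp32b bases 46450902 to 46472657 of chromosome 4, and Anp32e bases 95929246 to 95947390 of chromosome 3, all on the plus strand. The principal transcript of each has 7 exons. The coding sequences hold 247, 272 and 260 codons for Anp32a, Anp32b and Anp32e, whereas the 3′UTRs differ more in length, with 1197, 503 and 2140 bases. Anp32b, the RNA with the largest Ps enrichment, has the shortest 3′UTR of the 3, and a relation between length and enrichment was not tested.

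The coding sequences are alike enough to align and different enough to be told apart by reads. Aligned bases were 70.7% identical between Anp32a and Anp32b, 70.5% between Anp32a and Anp32e and 67.5% between Anp32b and Anp32e, and no exact run shared by a pair was longer than 20 bases.

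The acidic tail that gives the family its name is visible in the codons. Codons for aspartate or glutamate were counted in the C-terminal part, which was taken as the end of the coding sequence that is 0.5 times as long as the part before it. They made up 68.7% of this part in Anp32a, 75.8% in Anp32b and 59.8% in Anp32e, against 18.9%, 21.6% and 25.4% of the codons before it. The stretches below are 30 bases long, start at codon 165 of Anp32a, 188 of Anp32b and 169 of Anp32e, and consist of 10 acidic codons each, so all letters are capitals.

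Anp32a: GAGGATGACGACGAGGAAGATGAGGATGAG

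Anp32b: GAGGATGAAGAGGAAGAGGAAGATGAGGAT

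Anp32e: GATGAAGATGAGGAAGATGAGGACGAAGAT

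The longest unbroken run of acidic codons was 17 in Anp32b, 12 in Anp32a and 11 in Anp32e. Processed pseudogenes resemble 2 of the RNAs more closely than the family members resemble each other. Anp32b-ps1 on chromosome 4 matched the Anp32b coding sequence at 97.9% of aligned bases with an exact run of 101 bases, and Anp32-ps on chromosome 11 matched that of Anp32a at 95.8% with an exact run of 136 bases. Neither is a row of the table, and how the counting treated reads that fit a gene and its pseudogene is not given in the sources used here, so values of Anp32a and Anp32b carry that uncertainty. Anp32e overlaps Gm43375 on the same strand, which is not a row of the table either.

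Anp32b was the RNA with the highest level and the largest difference between the fractions. In HBB cell bodies its level was 6.33, 6.33, 6.35 and 6.27 log2 CPM in replicates 1 to 4, and in HBB Ps it was 7.78, 7.62, 8.13 and 7.82. In Pkp4 cUTR cell bodies it was 6.78, 6.57, 6.58 and 6.80, and in Pkp4 cUTR Ps 7.72, 7.76, 8.22 and 7.88. All 8 Ps samples lay above all 8 cell bodies, replicate 3 was the highest Ps sample of each line, and the HBB cell bodies were tightly grouped (SD 0.0349, n = 4) below all 4 Pkp4 cUTR cell bodies. Per sample, between 1706 and 5927 reads stood behind these values.

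Anp32a, the PP2A inhibitor, showed the same separation at a lower level. Its log2 CPM was 5.39, 5.23, 5.25 and 4.98 in HBB cell bodies, 6.19, 6.22, 6.15 and 5.89 in HBB Ps, 5.62, 5.24, 5.22 and 5.54 in Pkp4 cUTR cell bodies and 6.10, 6.23, 6.40 and 5.93 in Pkp4 cUTR Ps. The lowest Ps sample exceeded the highest cell body of either line, and replicate 4 was the lowest sample in 3 of the 4 groups. The 2 lines overlapped in both fractions.

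Anp32e, the H2A.Z chaperone, was the least abundant RNA and the one whose fractions lay closest together. Its log2 CPM was 4.27, 4.18, 4.15 and 3.96 in HBB cell bodies and 4.53, 4.71, 4.31 and 4.40 in HBB Ps. In Pkp4 cUTR cells it was 4.56, 4.46, 4.51 and 4.45 in cell bodies and 4.75, 4.58, 4.84 and 4.81 in Ps. Within each line the Ps samples lay above the cell bodies, by a gap of 0.0329 in HBB and 0.0170 in Pkp4 cUTR cells between the nearest samples, while HBB Ps overlapped with both Pkp4 cUTR cell bodies and Pkp4 cUTR Ps. In cell bodies the lines did not overlap. Its values rested on 345 to 685 reads per sample.

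**Figure D1:**
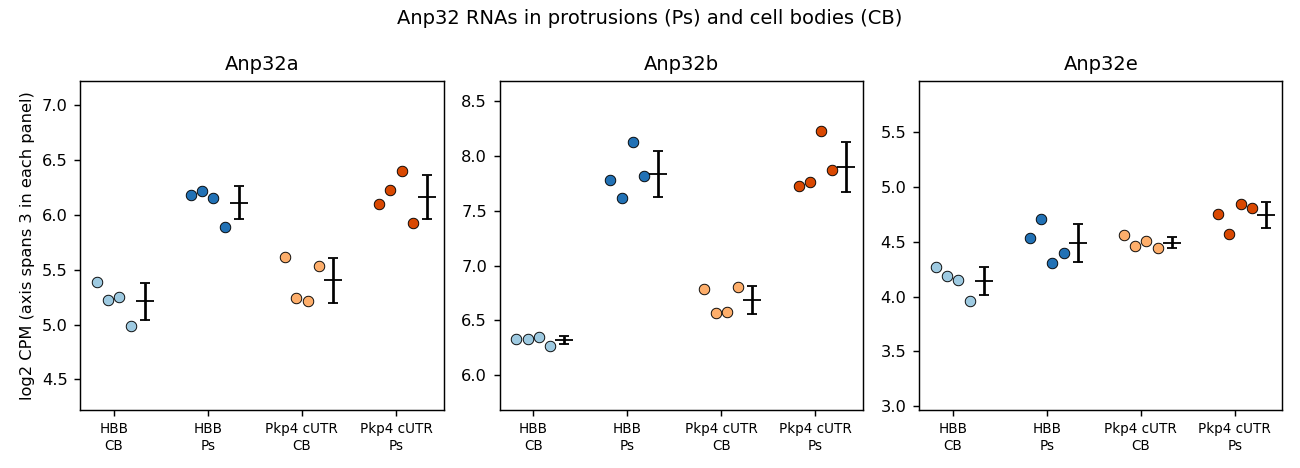
Level of Anp32a, Anp32b and Anp32e as log2 CPM (y axis, 3 units in each panel) in the 4 groups, with 1 point per sample in the order of the replicate numbers and the mean ± SD (n = 4) beside the points. Anp32b and Anp32a separate Ps from cell bodies in both lines, whereas HBB Ps and Pkp4 cUTR CB overlap for Anp32e.

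Per length of the merged exons, the order of the RNAs was the same in every group. In HBB cell bodies Anp32b reached 46.6 ± 1.12 CPM per kilobase (SD, n = 4), Anp32a 11.8 ± 1.33 and Anp32e 4.97 ± 0.439. In HBB Ps the levels were 134 ± 20.4, 21.9 ± 2.16 and 6.32 ± 0.775 CPM per kilobase, in the same order of genes. Pkp4 cUTR cell bodies had 60.0 ± 5.28, 13.5 ± 1.91 and 6.32 ± 0.226, and Pkp4 cUTR Ps had 140 ± 23.5, 22.8 ± 3.16 and 7.54 ± 0.611. No 2 of the 3 RNAs came within their spread of each other. With the longest transcript as the length, Anp32a rose to 17.6 CPM per kilobase in HBB cell bodies and Anp32e to 5.41, which left the order as it was.

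The enrichment at Ps was then expressed as log2(FC), Ps over CB, from a limma-voom fit over all 16 samples. In HBB cells it was 1.52 ± 0.108 (SE, n = 4 per group) for Anp32b, 0.90 ± 0.115 for Anp32a and 0.34 ± 0.0914 for Anp32e. In Pkp4 cUTR cells it was 1.21 ± 0.108, 0.76 ± 0.115 and 0.25 ± 0.0886. Anp32b thus stood 2.86-fold higher in Ps of HBB cells and 2.32-fold in Pkp4 cUTR cells, and was the only member past the study's cutoffs for enriched RNAs (FC > 2 and an unadjusted p-value under 0.05), beside 4.54% of all RNAs in HBB and 5.07% in Pkp4 cUTR cells. Because the choice of the family used this contrast, nothing is read from that count. These are shares of the RNA of a fraction, so more of a given RNA and less of the remaining RNA cannot be told apart.

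Anp32b ranked 103 of the 12900 RNAs by log2(FC) in HBB cells and 337 in Pkp4 cUTR cells. Anp32a ranked 903 and 1392, and Anp32e 3714 and 4341, well inside the bulk of all RNAs, whose median log2(FC) was 0.0060 in HBB and 0.0108 in Pkp4 cUTR cells. The position of Anp32e relative to 0 depended on the scaling of the libraries. The authors' scaling factors were below 1 in all 8 Ps samples and above 1 in all 8 cell bodies, and with plain totals of reads in their place the median of all RNAs moved to -0.23 and -0.25 and Anp32e to 0.10 in HBB and -0.01 in Pkp4 cUTR cells. Anp32b kept 1.28 and 0.95 and Anp32a 0.66 and 0.50 under that scaling.

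**Figure D2:**
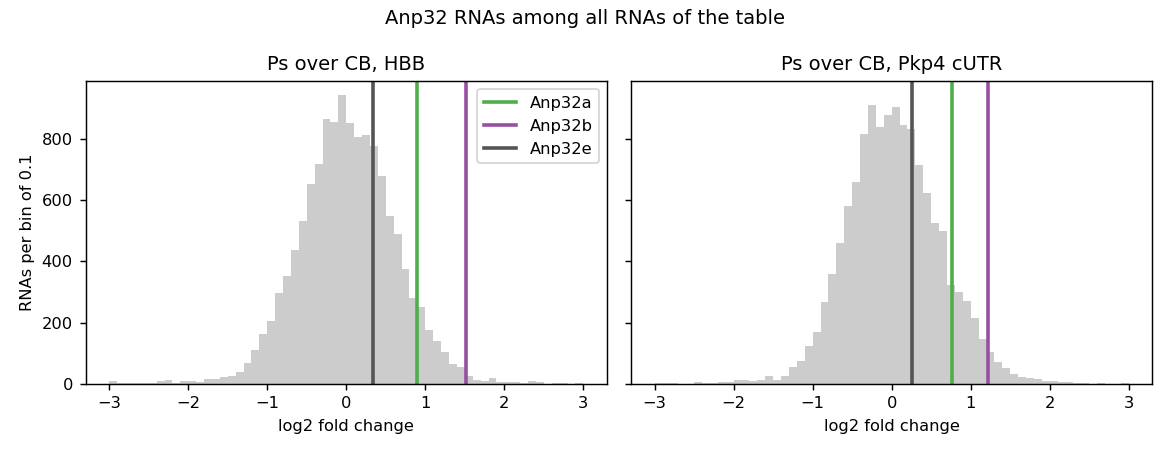
Number of RNAs (y axis) in bins of 0.1 of log2 fold change, Ps over CB (x axis), for HBB cells (left) and Pkp4 cUTR cells (right), with the 3 Anp32 RNAs as vertical lines and values past 3 in either direction placed in the outermost bin. Anp32b lies in the right tail at 1.52 and 1.21, and Anp32e at 0.34 and 0.25 lies within the bulk.

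Ratios between the members within a sample do not depend on the scaling of the library, and they too differed between the fractions. The log2 ratio of Anp32b to Anp32a was 1.11 ± 0.139 (SD, n = 4) in HBB cell bodies and 1.72 ± 0.274 in HBB Ps, and 1.28 ± 0.0874 and 1.73 ± 0.188 in Pkp4 cUTR cells. The log2 ratio of Anp32b to Anp32e was 2.18 ± 0.103 and 3.35 ± 0.378 in HBB cells and 2.19 ± 0.131 and 3.15 ± 0.176 in Pkp4 cUTR cells. Each of these ratios was higher in every Ps sample than in every cell body. Expressed per length, Anp32b made up 73.6% ± 1.71 of the 3 RNAs in HBB cell bodies and 82.4% ± 2.96 in HBB Ps, while Anp32e made up 7.85% ± 0.379 and 3.96% ± 0.882. In Pkp4 cUTR cells the part of Anp32b was 75.2% ± 0.626 in cell bodies and 82.1% ± 1.55 in Ps. The ranges of this part overlapped between the lines in Ps, with 78.8% to 85.3% in HBB and 80.6% to 83.5% in Pkp4 cUTR cells.

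**Figure D3:**
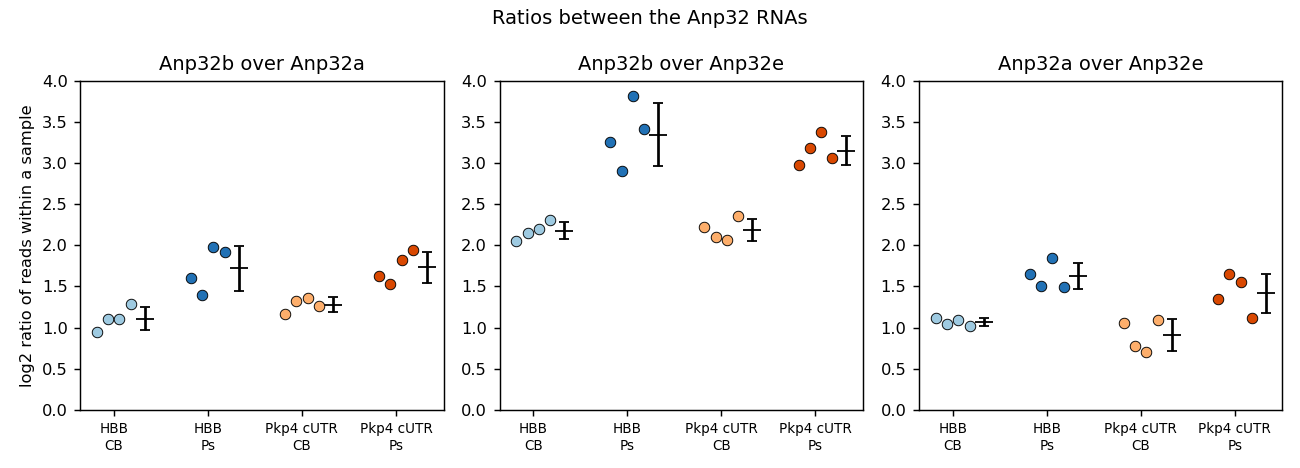
Log2 ratio of reads between pairs of Anp32 RNAs within each sample (y axis, from 0 to 4) in the 4 groups, with 1 point per sample and the mean ± SD (n = 4). The ratio of Anp32b to Anp32e is 2.06 to 2.36 in the 8 cell bodies and 2.91 to 3.82 in the 8 Ps samples.

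The study asked whether expression of the Pkp4 3′UTR changes which RNAs accumulate at protrusions, and the measure is log2(Diff FC), the log2(FC) in Pkp4 cUTR cells minus that in HBB cells. It was -0.30 ± 0.153 (SE) for Anp32b, -0.14 ± 0.163 for Anp32a and -0.09 ± 0.127 for Anp32e. With a replicate block shared by the lines, whose numbers pair the samples, the value of Anp32b was -0.30 ± 0.136, and with plain totals of reads it was -0.33 ± 0.128. These values are descriptions, like the ratios they come from. Across all RNAs, 0% passed an adjusted p of 0.05 in limma, and 300 of 12900 had an unadjusted p under 0.05. The study used other cutoffs, on log2(Diff FC) and p-value among Ps-enriched RNAs only, and reported a group that became less enriched. It also reported less peripheral Ddr2 and Kank2 RNA by in situ hybridization in such lines. Without the replicate 4 cell bodies, log2(Diff FC) was -0.25 for Anp32b, -0.02 for Anp32a and -0.05 for Anp32e.

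For Anp32b the 2 fractions did not contribute alike to this difference. Its level in Pkp4 cUTR cells relative to HBB cells was 0.36 ± 0.108 (log2, SE) in cell bodies and 0.06 ± 0.108 in Ps. The lower Ps to CB ratio of Anp32b in Pkp4 cUTR cells thus went with a higher level in cell bodies, where the samples of the lines did not overlap, and not with a lower level in Ps, where they did. Without the replicate 4 cell bodies the cell-body value was 0.31, and with single samples left out the Ps value ranged from -0.05 to 0.16. These values carry no test, since log2(Diff FC) of Anp32b is built from them.

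Between the lines, Anp32e and Anp32a could be tested. Anp32e was higher in Pkp4 cUTR than in HBB cell bodies by 0.35 ± 0.0890 (log2, SE, n = 4 per group), with a Benjamini-Hochberg adjusted p of 0.0196 in limma, in a contrast in which 3.42% of all RNAs were called higher and 5.55% lower. The lowest Pkp4 cUTR cell body exceeded the highest HBB cell body. The call was lost under 5 alternatives, as the adjusted p was 0.0527 without HBB CB replicate 3, 0.0528 without HBB CB replicate 4, 0.0633 without Pkp4 cUTR CB replicate 1, 0.0646 without both replicate 4 cell bodies and 0.0574 with plain totals of reads, within a range of 0.0126 to 0.0646 over 24 alternatives. The estimate remained between 0.29 and 0.39 when single samples were left out.

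In Ps, Anp32e differed between the lines by 0.26 ± 0.0910 with an adjusted p of 0.0970 in limma, where 2.89% of all RNAs were called higher and 4.26% lower. Without HBB Ps replicate 2, the highest sample of its group, the difference was 0.33 with an adjusted p of 0.0378. Anp32a differed by 0.19 ± 0.116 in cell bodies (adjusted p = 0.364 in limma, 95% interval -0.06 to 0.43), by 0.07 in cell bodies without both replicate 4 samples (adjusted p = 0.819) and by 0.05 ± 0.114 in Ps (adjusted p = 0.849, interval -0.19 to 0.29). A difference of Anp32a between the lines was thus not detectable with these samples, and the intervals leave room for one of the size seen for Anp32e.

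**Figure D4:**
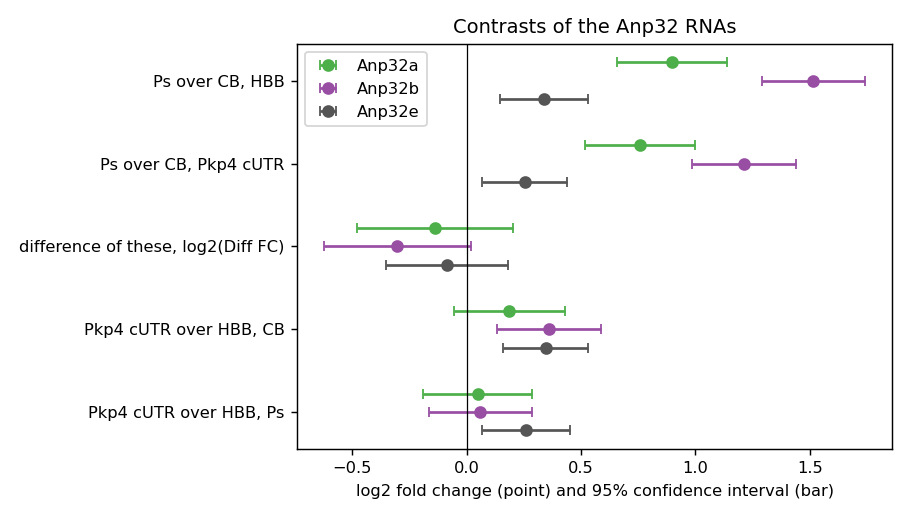
Log2 fold change (x axis, point) with its 95% confidence interval (bar) for the 3 Anp32 RNAs in each of 5 contrasts (y axis). The values for Ps over CB fall in the order Anp32b, Anp32a, Anp32e in both lines, and log2(Diff FC) is -0.30, -0.14 and -0.09 in that order.

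The RNAs with the pattern most like that of each member were found from the mean absolute difference of the centred log2 CPM over the 16 samples, taken over the 10154 RNAs that averaged more than 1 log2 CPM. For Anp32b they were Gm4204, Tpt1, Rpl26, Rpl17 and Rpl31, with differences of 0.0936 to 0.108. Rpl26, Rpl17 and Rpl31 encode proteins of the large ribosomal subunit, and Tpt1 encodes the translationally controlled tumour protein. Rpl17 had log2(FC) values of 1.29 in HBB and 1.27 in Pkp4 cUTR cells, against 1.52 and 1.21 for Anp32b.

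For Anp32a the most similar RNAs were Rala, Eny2, Arl3, Dbi and Ndufb3, at differences of 0.0682 to 0.0765. Rala and Arl3 encode small GTPases, Eny2 a component of a transcription and mRNA export complex, Dbi an acyl-CoA-binding protein and Ndufb3 a subunit of respiratory complex I. For Anp32e they included Myh10, Mtap, Eif3c and Larp1b, at differences of 0.0675 to 0.0837, of which Myh10 encodes nonmuscle myosin IIB and Eif3c a translation initiation factor. The members were not each other's nearest RNAs, as Anp32a stood at place 433 in the order for Anp32b and Anp32e at place 2802.

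RNAs were counted from 5 lists for processes in which the family takes part, with 83 RNAs in the table out of 85 listed. They are called partner RNAs here for their process, and binding of each protein to an ANP32 protein is not implied. In HBB cells 36 of the 83 were higher in Ps (43.4%, beside 28.3% of all RNAs) and 12 were lower (14.5%, beside 28.9%), at an adjusted p under 0.05 in limma. In Pkp4 cUTR cells 33 were higher (39.8%, beside 28.2%) and 14 lower (16.9%, beside 28.5%). The median log2(FC) was 0.13 in HBB and 0.11 in Pkp4 cUTR cells. Plain totals of reads lower the log2(FC) of all RNAs, as given above, and the counts were then 20 higher and 30 lower in HBB cells, beside 15.0% and 43.5% of all RNAs, and 19 higher and 36 lower in Pkp4 cUTR cells, beside 13.9% and 45.5%.

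The histone chaperones held the largest differences. In HBB cells 13 of 22 were higher in Ps (59.1%, beside 28.3% of all RNAs) and 1 was lower (4.55%, beside 28.9%). The lower RNA was Hjurp, the chaperone of the centromeric histone (log2(FC) -0.86), a gene named after its value was seen. Ncl, the nucleolar protein nucleolin, was higher by 1.44 ± 0.108 (SE) in HBB and 1.64 ± 0.108 in Pkp4 cUTR cells. Npm1, nucleophosmin, was higher by 1.38 ± 0.110 and 1.39 ± 0.110, Nap1l1, a nucleosome assembly protein, by 1.36 ± 0.0994 and 1.25 ± 0.0993, and Npm3 by 0.78 ± 0.0890 and 0.63 ± 0.0888. These 4 RNAs had adjusted p-values of at most 1.2e-05 in limma in both lines. They were named for having the smallest p of their list in HBB cells, so these p-values are not support. In Pkp4 cUTR cells 10 of the 22 were higher (45.5%, beside 28.2% of all RNAs) and 1 lower (4.55%, beside 28.5%). With plain totals of reads 6 were higher and 4 lower in HBB cells, beside 15.0% and 43.5% of all RNAs. In Pkp4 cUTR cells 6 were then higher and 5 lower, beside 13.9% and 45.5%.

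Of the PP2A subunits and regulators, 12 of 24 were higher (50%, beside 28.3% of all RNAs) and 3 lower (12.5%, beside 28.9%) in Ps of HBB cells. In Pkp4 cUTR cells 11 were higher (45.8%, beside 28.2%) and 3 lower (12.5%, beside 28.5%). With plain totals of reads 9 were higher and 8 lower in HBB cells, beside 15.0% and 43.5% of all RNAs. In Pkp4 cUTR cells 7 were then higher and 10 lower, beside 13.9% and 45.5%. Set, the PP2A inhibitor and histone chaperone that acts with ANP32A, had log2 CPM values of 6.03 to 6.19 in HBB cell bodies and 6.67 to 6.84 in HBB Ps, and its Ps samples lay above its cell bodies in Pkp4 cUTR cells as well. Its log2(FC) was 0.64 ± 0.0794 in HBB and 0.63 ± 0.0789 in Pkp4 cUTR cells (adjusted p = 2.7e-06 and 3.2e-06 in limma), between the values of Anp32a and Anp32e. Igbp1, which binds the PP2A catalytic subunit, was higher by 0.75 ± 0.0875 in HBB cells, and the regulatory subunits Ppp2r3c and Ppp2r5c by 0.82 ± 0.122 and 0.57 ± 0.0783. These 3 RNAs and Set had the smallest p of the list in HBB cells, by which RNAs were named. The p-values of Set are therefore not support. The 3 lower RNAs in HBB cells were Ppp2r3d (-0.42), Ppp2r5b (-0.28) and Fam122a (-0.46), named after their values were seen.

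The list for H2A.Z, the histone variant that ANP32E handles, had shares near those of all RNAs in HBB cells. There 6 of 22 were higher (27.3%, beside 28.3%) and 5 lower (22.7%, beside 28.9%) in Ps. In Pkp4 cUTR cells 5 were higher (22.7%, beside 28.2%) and 7 lower (31.8%, beside 28.5%). With plain totals of reads 3 were higher and 13 lower in HBB cells, beside 15.0% and 43.5% of all RNAs. In Pkp4 cUTR cells 3 were then higher and 15 lower, beside 13.9% and 45.5%. H2afv, which encodes one of the H2A.Z proteins, was higher by 0.62 ± 0.108 in HBB and 0.58 ± 0.107 in Pkp4 cUTR cells, and Epc2 of the TIP60 complex by 0.71 ± 0.126 and 1.10 ± 0.125. Mrgbp and the scaffold protein gene Trrap of the same complex were lower, with -0.65 ± 0.0901 and -0.64 ± 0.106 in HBB cells. All 4 had an adjusted p of at most 0.00018 in limma in both lines, but they were named for the smallest p of their list in HBB cells. These p-values are therefore not support.

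For HuR and nuclear export, 4 of 9 RNAs were higher (44.4%, beside 28.3% of all RNAs) and 1 lower (11.1%, beside 28.9%) in Ps of HBB cells. In Pkp4 cUTR cells 5 were higher (55.6%, beside 28.2%) and 1 lower (11.1%, beside 28.5%). With plain totals of reads 2 were higher and 3 lower in HBB cells, beside 15.0% and 43.5% of all RNAs. In Pkp4 cUTR cells 3 were then higher and 3 lower, beside 13.9% and 45.5%. Xpo1, the export receptor that carries HuR with its ANP32 ligands, was higher by 0.93 ± 0.147 in HBB and 1.36 ± 0.139 in Pkp4 cUTR cells, and the GTPase gene Ran by 0.58 ± 0.106 and 0.53 ± 0.107. Ranbp1 was higher by 0.42 ± 0.118 in HBB cells, while Nxf1, the receptor for bulk mRNA export, was lower, at -0.64 ± 0.0659 and -0.55 ± 0.0661. The apoptosome list had shares near those of all RNAs in HBB cells, with 2 of 7 higher (28.6%, beside 28.3%) and 2 lower (28.6%, beside 28.9%). In Pkp4 cUTR cells 3 were higher (42.9%, beside 28.2%) and 2 lower (28.6%, beside 28.5%). With plain totals 1 was higher and 2 lower in HBB cells, beside 15.0% and 43.5% of all RNAs. In Pkp4 cUTR cells 1 was then higher and 3 lower, beside 13.9% and 45.5%. Cycs, cytochrome c, and the caspase inhibitor gene Xiap were higher by 0.61 ± 0.105 and 0.52 ± 0.131 in HBB cells, whereas Apaf1 and Casp9, the core of the apoptosome, were lower, at -0.36 and -0.40. The named RNAs of these lists had an adjusted p of at most 0.0083 in limma in HBB cells. That was set by naming the RNAs with the smallest p in this contrast, so it is not support. With plain totals of reads the adjusted p became 0.158 for Ranbp1 and 0.102 for Xiap.

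**Figure D5:**
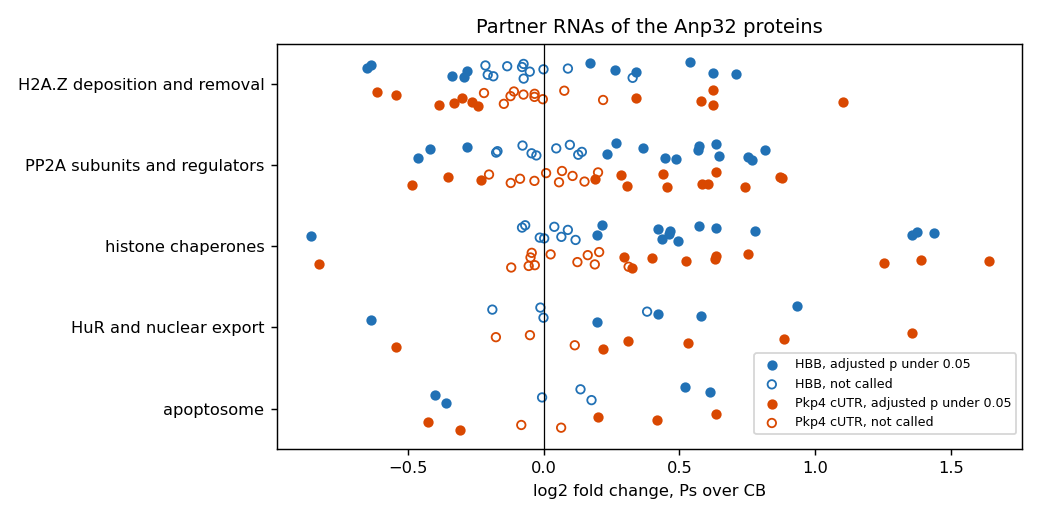
Log2 fold change, Ps over CB (x axis), of every RNA of the 5 partner lists in HBB cells (blue) and Pkp4 cUTR cells (orange), with filled points at an adjusted p under 0.05. The 3 histone chaperones at the right, Ncl, Npm1 and Nap1l1, exceed 1.2 in both lines. The lists were set by process and not by binding to an ANP32 protein.

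Between the lines, 7 of the 83 partner RNAs were higher (8.43%, beside 3.42% of all RNAs) and 1 lower (1.2%, beside 5.55%) in Pkp4 cUTR than in HBB cell bodies. In Ps 7 were higher (8.43%, beside 2.89%) and 1 lower (1.2%, beside 4.26%). Set was higher by 0.33 ± 0.0793 in cell bodies (adjusted p = 0.0134 in limma) and by 0.32 ± 0.0790 in Ps (adjusted p = 0.0166), so that its log2(Diff FC) was -0.0024 ± 0.112. Npm3 was higher by 0.37 ± 0.0890 in cell bodies (adjusted p = 0.0125 in limma) and by 0.22 in Ps (adjusted p = 0.145). Xpo1 was higher by 0.61 ± 0.135 in Ps (adjusted p = 0.0095) and by 0.19 in cell bodies (adjusted p = 0.508). Set, Npm3 and Xpo1 had a small p for Ps over CB in HBB cells, which uses the same HBB samples, so these p-values are not support. Chaf1a, Chaf1b and Ppp2r2d, named after their values were seen, were also called higher in both fractions. The count in Ps was 3 without HBB Ps replicate 1 or Pkp4 cUTR Ps replicate 3 and 4 without HBB Ps replicate 4 or Pkp4 cUTR Ps replicate 2, and the RNA that was lower, Ppp2r5b, named after its value was seen, was lost without HBB Ps replicate 3, HBB Ps replicate 4 or Pkp4 cUTR Ps replicate 2. No partner RNA had an adjusted p under 0.05 in limma for log2(Diff FC), beside 0% of all RNAs. An unadjusted p under 0.05 was found for 2 of the 83, beside 2.33% of all RNAs.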

How the data were processed

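RNA-Seq data came from 16 samples, assigned to groups by line, fraction and replicate number in the labels. The authors aligned reads to mm10 with STAR 2.4.2a, counted them per gene and deposited limma-voom (limma 3.26.1) log2 CPM values for 12900 RNAs. These contain the reads of a gene plus 0.5, divided by a scaled library size. Whole reads were recovered from the steps between low values (100% of values within 0.01 of a whole number) and entered limma-voom (limma 3.58.1, R 4.3.3) with the authors' scaled library sizes, 1 mean per group and Benjamini-Hochberg adjustment over all RNAs. The fit was tested on simulated data. The members and lists were chosen with earlier results of these data known. Named were the 3 members, the 4 RNAs per list with the smallest p for Ps over CB in HBB cells, Set, the 5 nearest RNAs per member, and fraction checks. One of the nearest RNAs is not reported here. Deviations from the group means correlated between the lines for equal replicate numbers (mean 0.483 in cell bodies and 0.316 in Ps, above 0.1 in 4 of 4 pairs each), so the replicate numbers pair the lines. Alternatives covered weights, scaling, filtering, pseudocount, the replicate block and each sample left out. Lengths and sequences came from GENCODE vM21.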

Additional observations from a re-analysis of the deposited data

How the results depend on the processing

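Of 628 recomputed values, 590 kept their direction and their side of the threshold, or moved by less than 1 SD between replicates or 1.5 times a count. Many of the 628 left out a sample of a group outside the contrast, which could hardly move the value. The number that stayed the same is therefore no measure of robustness. With plain totals of reads, log2(FC) in HBB and Pkp4 cUTR cells was 0.66 and 0.50 for Anp32a, 1.28 and 0.95 for Anp32b and 0.10 and -0.0116 for Anp32e, the last with its sign turned, and the Anp32e difference in cell bodies was 0.33. The partner RNAs then numbered 20 higher and 30 lower in HBB and 19 higher and 36 lower in Pkp4 cUTR cells. This scaling moves the median of all RNAs, as given above. Without both replicate 4 cell bodies, an alternative chosen after seeing the data, the Anp32e difference in cell bodies was 0.31 and lost its call, and the cause was not tested. With median centring, 4 partner RNAs were higher in Pkp4 cUTR cell bodies, and the share of all RNAs was not counted there. At FC > 2 and an unadjusted p under 0.05, 3 of the 83 partner RNAs were higher in Ps of HBB and 5 of Pkp4 cUTR cells. The shares of all RNAs were 4.54% and 5.07%. At these cutoffs 0 partner RNAs were lower in either line, and 0 differed between the lines. No share of all RNAs was counted for these results, so nothing is read from them.

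Leaving out 1 sample at a time gave 0.11 to 0.25 for Anp32a and 0.29 to 0.39 for Anp32e between the lines in cell bodies, and in Ps -0.0306 to 0.13 for Anp32a, -0.0498 to 0.16 for Anp32b and 0.20 to 0.33 for Anp32e. The sign turned for Anp32a without HBB Ps replicate 4 (-0.0245) or Pkp4 cUTR Ps replicate 3 (-0.0306), and for Anp32b without HBB Ps replicate 2 (-0.0134) or Pkp4 cUTR Ps replicate 3 (-0.0498). Log2(Diff FC) of Anp32b ranged from -0.41 to -0.21, of Anp32a from -0.22 without Pkp4 cUTR Ps replicate 3 to -0.06 without Pkp4 cUTR Ps replicate 4, and of Anp32e from -0.14 without HBB Ps replicate 3 to -0.01 without HBB Ps replicate 2. Partner RNAs in Ps numbered 3 to 10 higher and 0 to 1 lower, and the shares of all RNAs were not counted for these fits.

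With the replicate block, the Anp32e difference in cell bodies was 0.34 (adjusted p = 0.0192 in limma), log2(Diff FC) of Anp32b was -0.30, and no call of a member changed. Within HBB cells, same-numbered Ps and CB samples correlated above 0.1 in 3 of 4 pairs (mean 0.178, against -0.062 for unequal numbers). In Pkp4 cUTR cells 0 of 4 pairs did so (mean -0.161). The numbers thus gave a sign of pairing between the fractions in HBB cells only. The block gave log2(FC) of 1.52 and 1.21 for Anp32b. It left 34 partner RNAs higher and 13 lower in each line, and the shares of all RNAs were not counted there. With a block shared by the lines, chosen after seeing the data, log2(Diff FC) of Anp32b was -0.30 ± 0.136 (SE), against ± 0.153 without a block. The lowest value of a member rested on 345 reads.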
